A study of Mus musculus with 12 samples.

Results

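Smooth muscle and contractile genes were read in liver sinusoidal endothelial cells (LSECs) of mice lacking stabilin 1, stabilin 2 or both. The set holds 10 of the 24011 genes with a symbol on the arrays: Acta2, Tagln, Myh11, Cnn1, Tpm1, Tpm2, Myl9, Des, Pdlim3 and Tnni3. They were chosen by name with earlier results of these arrays in view: the log2 differences of Tnni3 and Pdlim3 in Stab2KO against WT, of Acta2 and Tagln in Stab2KO and DKO against WT, and the falls of stellate genes such as Lrat. Those differences are therefore described with their errors and no p. Calls of the fit are given for them only as counts, or as kept or lost without an array, and restate what was known at the choice. Each gene had 1 row in the deposited table, and 8 of the 10 had a mean above the 40th percentile of all gene means. Cnn1 and Tpm2 lay below it.

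Stab1 and Stab2 encode stabilin 1 and stabilin 2, scavenger receptors of the LSEC, which is the fenestrated, highly endocytic endothelium of the liver capillaries. The 12 arrays form 4 genotypes of 3 arrays, all on strain C57BL/6J at an age of 3 to 4 months: wild type (WT), mice without Stab1 (Stab1KO), mice without Stab2 (Stab2KO) and mice with neither gene (DKO). RNA of each array came from 3 pooled mice, taken directly after isolation with beads against CD146, and each pool is a separate biological replicate. Animals received no treatment that the labels name, and the labels give neither how the alleles were made nor whether WT and knockout mice were littermates. CD146 is also carried by pericytes and vascular smooth muscle cells, as background to a set of contractile genes. None of the 10 genes lies on the chromosome of Stab1 or that of Stab2 in RefSeq's annotation of GRCm38.p6.

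Values are deposited log2 expression values, so a difference of 1 is a doubling of signal. No gene can be called absent, because detection calls were not used here, and levels of different genes are not compared. The Stab1 means of WT and Stab2KO were 12.54 and 12.53, and those of Stab1KO and DKO 5.31 and 5.23. The Stab2 means of WT and Stab1KO were 13.05 and 13.00, and those of Stab2KO and DKO 6.81 and 6.65, so the arrays matched their labels. The endothelial genes Pecam1 (12.24 to 12.64), Cdh5 (13.31 to 13.50) and Clec4g (13.44 to 13.79) were high on every array. The mean of a neutrophil list was 12.38 on DKO replicate 3 against 5.80 to 7.23 on the other 11 arrays, and this array correlated with the others at 0.956 to 0.968 where the other 11 correlated at 0.987 or more. DKO values of the contractile genes without that array are given where they move by over 1.5 times.

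Contractile cells of the vessel wall shorten by sliding actin filaments along smooth muscle myosin. In the liver these are vascular smooth muscle cells and pericytes of the portal tract and central vein, while hepatic stellate cells, which wrap the sinusoid and keep its vitamin A, acquire Acta2 when they turn into myofibroblasts. Quiescent stellate cells are known by Lrat, the enzyme that stores retinol as esters, and in rodents by desmin. Many contractile genes share a promoter element, the CArG box, which is bound by serum response factor (SRF) together with myocardin or the myocardin-related factors that RhoA signalling frees.

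The promoters of 3 members are shown because they hold the CArG letters in genes that differ in their pattern over the genotypes. A match was a CC pair, a run of A or T, and a GG pair, and it reads the same on both strands. RefSeq windows from 250 bases before to 50 bases after the start of transcription, in the GRCm38.p6 build, were listed for 8 of the 10 genes and not for Tagln or Myh11. Capitals mark matches with at most 1 mismatch. The Acta2 stretch lies on the minus strand at chr19:34255374-34255493, the Myl9 stretch on the plus strand at chr2:156775284-156775403, and the Pdlim3 stretch on the plus strand at chr8:45885367-45885426. 
Acta2: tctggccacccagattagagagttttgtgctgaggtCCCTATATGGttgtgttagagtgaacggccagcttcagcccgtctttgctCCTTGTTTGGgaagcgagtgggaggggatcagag
Myl9: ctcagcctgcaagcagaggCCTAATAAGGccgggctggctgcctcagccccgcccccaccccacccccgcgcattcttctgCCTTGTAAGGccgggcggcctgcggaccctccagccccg
Pdlim3: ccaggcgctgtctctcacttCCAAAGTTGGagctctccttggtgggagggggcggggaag
An exact match was found in 1 member window, that of Myl9, and in 1.63% of all 32851 windows. With up to 1 mismatch, 4 of the 8 windows held one (Acta2, Tpm1, Myl9 and Pdlim3), against 21.1% of all windows. A match describes the letters of the window and is not a measured site.

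Acta2, the smooth muscle actin of the contractile filament and the usual mark of myofibroblasts, had the widest range of the 10 genes. WT arrays read 6.89, 6.79 and 7.21 log2, and Stab1KO arrays read 7.36, 6.70 and 7.17. Stab2KO arrays read 7.46, 7.33 and 9.55, and DKO arrays read 9.66, 7.99 and 9.29. WT and Stab1KO overlapped, every Stab2KO array lay above every WT array, and every DKO array lay above every WT and every Stab1KO array.

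The Acta2 means were 6.97 ± 0.22 in WT, 7.07 ± 0.34 in Stab1KO, 8.11 ± 1.25 in Stab2KO and 8.98 ± 0.88 in DKO (SD, n = 3 each). DKO was 2.02 log2 above WT (SE 0.56, 95% interval 0.78 to 3.25), or 4.04-fold, and 1.91 above Stab1KO. Stab2KO was 1.15 above WT with the same SE, but 1 array carried most of that: without Stab2KO replicate 3 the difference was 0.43. DKO and Stab2KO overlapped, with a difference of 0.87 that ran from 0.48 to 1.59 as single arrays were left out. The means thus ran in the order WT, Stab1KO, Stab2KO and DKO, but the arrays of each genotype overlapped those of its neighbour in that order. Acta2 reached a call in DKO against WT under 1 alternative, the fit without Stab2KO replicate 3. That array belongs to neither genotype compared, and the difference stayed at 2.02, so only its estimated error and adjustment changed.

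**Figure D1:**
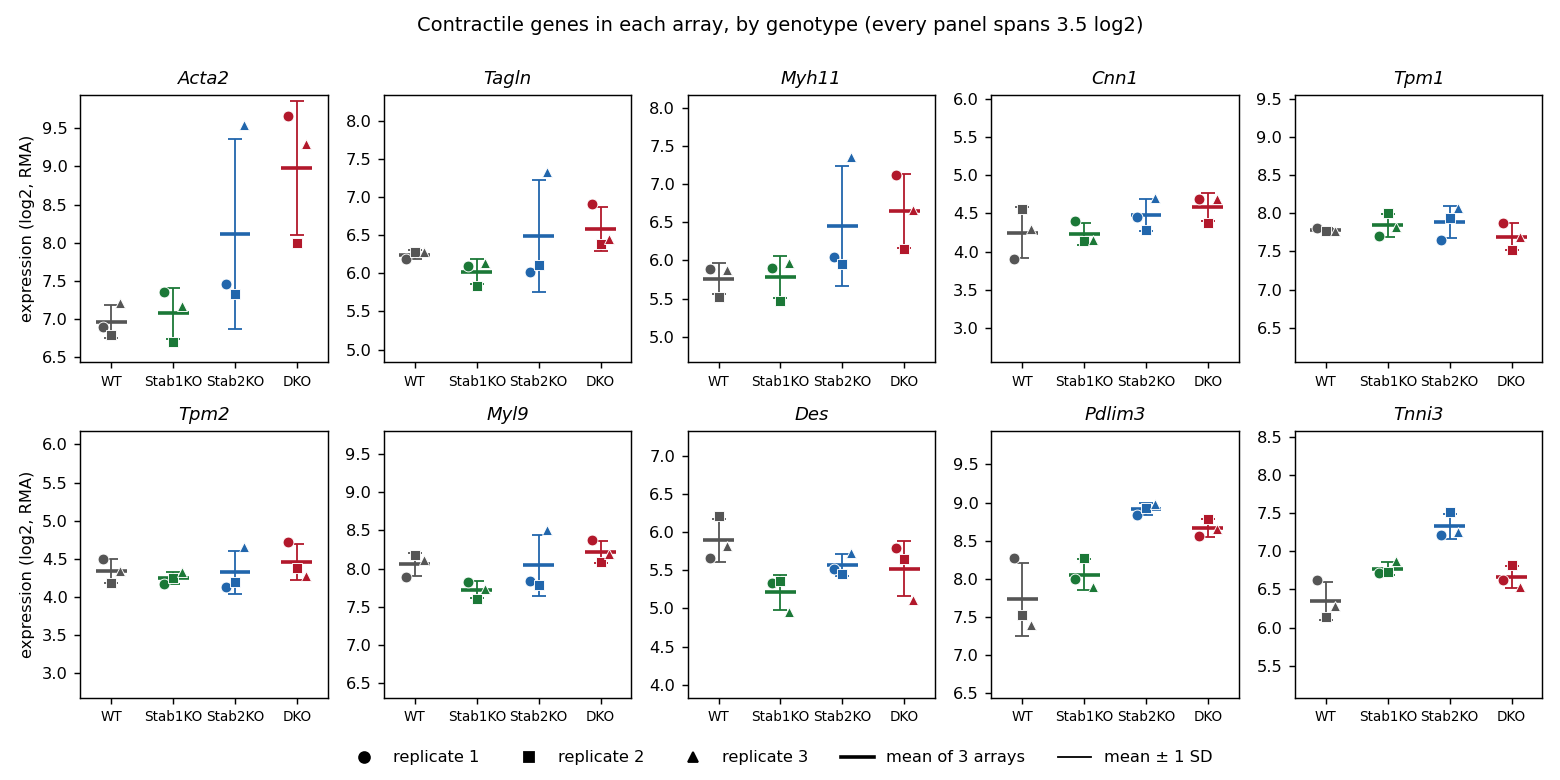
Expression (log2, vertical axes) of the 10 contractile genes by genotype, 1 panel per gene, with a point for each array, a thick line at the mean of 3 arrays and a thin bar of ± 1 SD. Acta2 and Myh11 show 1 high Stab2KO array (9.55 and 7.36) and a spread among the DKO arrays, whereas the Stab2KO arrays of Pdlim3 lie close together (8.83 to 8.99).

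Myh11, the heavy chain of smooth muscle myosin and the most restricted marker of mature smooth muscle among the 10, had values of 5.88, 5.52 and 5.88 in WT and 5.91, 5.47 and 5.97 in Stab1KO. In Stab2KO they were 6.05, 5.95 and 7.36, and in DKO 7.12, 6.15 and 6.66. The high arrays were the same as for Acta2: Stab2KO replicate 3 and DKO replicates 1 and 3. Means were 5.76 ± 0.21, 5.78 ± 0.27, 6.45 ± 0.79 and 6.64 ± 0.49 in WT, Stab1KO, Stab2KO and DKO (SD, n = 3). DKO was 0.88 above WT (SE 0.35, 95% interval 0.10 to 1.66). Stab2KO was 0.69 above WT, and 0.24 without its replicate 3.

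Tagln encodes transgelin, an actin-binding protein of smooth muscle. Its WT arrays read 6.18, 6.27 and 6.28, its Stab1KO arrays 6.09, 5.83 and 6.14, its Stab2KO arrays 6.02, 6.11 and 7.33, and its DKO arrays 6.91, 6.38 and 6.45. All DKO arrays lay above all WT arrays, and all Stab1KO arrays lay below them. The DKO mean was 0.34 above WT (SE 0.29), or 0.17 without DKO replicate 1, and the Stab1KO mean was 0.22 below, or 0.13 without Stab1KO replicate 2. The Stab2KO mean was 0.24 above WT with all arrays and lay below it, at -0.18, without Stab2KO replicate 3. That genotype therefore gave no direction for Tagln.

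Cnn1, calponin 1, which inhibits the myosin ATPase of smooth muscle, stayed near the lower end of the scale. Its arrays read 3.90, 4.55 and 4.30 in WT, 4.40, 4.14 and 4.15 in Stab1KO, 4.46, 4.29 and 4.70 in Stab2KO, and 4.68, 4.37 and 4.69 in DKO. Every knockout overlapped WT, and the differences from WT were -0.02, 0.23 and 0.33 (SE 0.17) in the order Stab1KO, Stab2KO and DKO. With any 1 array left out, that of Stab2KO ran from 0.06 to 0.38 and that of DKO from 0.16 to 0.49, both lowest without WT replicate 1, and that of Stab1KO from -0.19 to 0.13.

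Acta2, Tagln, Myh11 and Cnn1 varied together among pools of 1 genotype. After each genotype's mean was removed, all 6 pairs of these genes correlated above 0 over the 12 arrays, at 0.43 to 0.97 with a median of 0.75. The highest value was that of Acta2 with Myh11. Without Stab2KO replicate 3 the 6 values ran from 0.17 to 0.92 with a median of 0.61. Over all 45 pairs of the 10 genes the median was 0.34, and 32 lay above 0. Cnn1 was the loosest of the 4, at 0.43 to 0.59 with the others. Myl9 (0.94 with Tagln and 0.89 with Acta2) and Tpm2 (0.83 with Myh11, 0.81 with Tagln and 0.70 with Acta2) ran closer to Acta2, Tagln and Myh11 than Cnn1 did, while Tnni3 and Cnn1 stood at -0.89. These are descriptions, and genes read on the same array share its pool and scan.

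Across all 12 arrays, means included, the genes most like Acta2 by Pearson's r among 19544 ranked genes were Myh11 (0.965), Aspn (0.959), Ninl (0.917), Spata13 (0.916) and Pcp4l1 (0.911). Tagln stood at 0.854, a value that includes the genotype differences known at the choice.

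Markers of pericytes and vascular smooth muscle moved in part with these 4 genes. The mean log2 level of 21 measured of 22 such markers was 6.10 to 6.18 in WT, 5.85 to 5.86 in Stab1KO, 5.85, 5.75 and 6.19 in Stab2KO and 6.22, 5.99 and 6.17 in DKO. The arrays with the highest Acta2 in Stab2KO and DKO thus also had the highest marker mean in their genotype. Rgs5, a pericyte regulator of G-protein signalling, read 9.03, 8.61 and 10.36 in Stab2KO and 9.97, 8.81 and 9.77 in DKO, the same order as Acta2 in DKO. Unlike Acta2, Rgs5 was highest in WT, at 10.52, 10.87 and 10.63, and it was 8.94, 8.20 and 8.51 in Stab1KO. Notch3, a receptor that defines mural cells, ranged from 4.50 to 5.20 over the 12 arrays with its highest value on Stab2KO replicate 3. The part of mural cells in the Acta2 differences was not tested. In pooled cells, more cells of a type and more RNA per cell cannot be told apart.

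Other markers also stood higher in DKO, where Acta2 did. A list of 22 immediate early genes, which respond to handling as well as to signals, averaged 9.60 to 10.06 in WT, 9.56 to 9.78 in Stab1KO, 9.75, 9.65 and 10.46 in Stab2KO and 10.80, 11.07 and 11.04 in DKO. Stab2KO replicate 3 was again the highest of its genotype. Cholangiocyte markers (6 measured of 9) averaged 5.86 to 6.40 in WT and 7.49 to 7.70 in DKO. Portal fibroblast and mesothelial markers (16) averaged 5.68 to 5.83 in WT and 6.04 to 6.26 in DKO. The part of these in the contractile differences was not tested. DKO replicate 2, the lowest DKO array for Acta2, was the highest for the immediate early list, at 11.07.

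**Figure D2:**
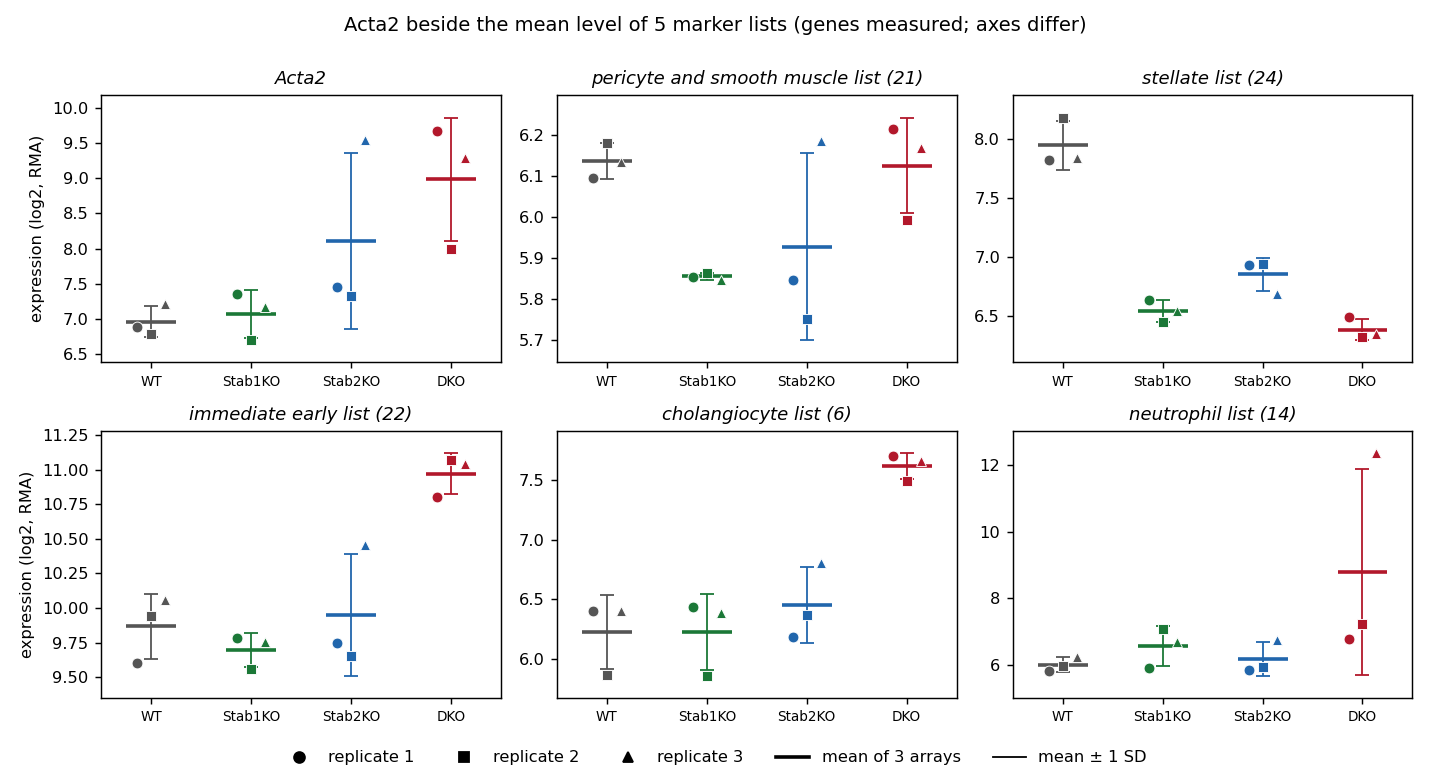
Acta2 and the mean level of 5 marker lists (log2, vertical axes, which differ in range) by genotype, with a point for each array, marked by replicate, and the mean ± 1 SD of 3 arrays. Stab2KO replicate 3 is the highest of its genotype for Acta2 (9.55), the pericyte and smooth muscle list (6.19) and the immediate early list (10.46), and the stellate list separates WT from every knockout.

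Myl9, the regulatory light chain through which phosphorylation switches smooth muscle myosin on, read 7.89, 8.18 and 8.11 in WT and 7.83, 7.61 and 7.73 in Stab1KO. In Stab2KO it read 7.84, 7.78 and 8.51, and in DKO 8.37, 8.08 and 8.20. Every Stab1KO array lay below every WT and every DKO array, and WT, Stab2KO and DKO overlapped. Stab1KO was 0.34 below WT and DKO 0.49 above Stab1KO, with an SE of 0.17 for each difference. Stab2KO was within 0.02 of WT, and 0.25 below it without Stab2KO replicate 3.

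Tpm1 and Tpm2 encode tropomyosins, the rods that lie along actin filaments and are found in many cell types. Tpm1 ranged from 7.52 to 8.08 over all 12 arrays and Tpm2 from 4.13 to 4.73, with no genotype separated from WT for either. Differences from WT were 0.06, 0.11 and -0.09 (SE 0.12) for Tpm1 and -0.09, -0.01 and 0.12 (SE 0.15) for Tpm2 in Stab1KO, Stab2KO and DKO. The DKO difference of Tpm2 ran from -0.01 without DKO replicate 1 to 0.22 without DKO replicate 3.

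Des encodes desmin, the intermediate filament of muscle that stellate cells of rodents also hold, and its mean was below WT in all 3 knockouts. Its arrays read 5.66, 6.21 and 5.82 in WT, 5.33, 5.36 and 4.95 in Stab1KO, 5.52, 5.46 and 5.73 in Stab2KO, and 5.80, 5.65 and 5.11 in DKO. All Stab1KO arrays lay below all WT arrays, while Stab2KO and DKO overlapped WT. Stab1KO was 0.68 below WT (SE 0.20, 95% interval -1.11 to -0.25). In limma's fit over all genes its adjusted p was 0.71, the lowest of the 10 genes in that comparison, so it was not called. Stab2KO was 0.33 and DKO 0.37 below WT. The first was 0.17 without WT replicate 2, and the second 0.22 without that array and 0.17 without DKO replicate 3.

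Lrat was far lower in every knockout, one of the results in view when the genes were chosen. It read 9.13, 9.77 and 9.42 in WT, 6.68, 6.42 and 6.18 in Stab1KO, 7.60, 7.54 and 7.02 in Stab2KO and 6.03, 5.20 and 6.05 in DKO. No array of a knockout reached any WT array. Differences from WT were -3.01, -2.05 and -3.68 (SE 0.26) in Stab1KO, Stab2KO and DKO. Of 24 measured stellate markers, limma's fit called 13 lower in Stab1KO, 13 in Stab2KO and 15 in DKO, beside 0.279%, 0.212% and 1.05% of all genes, and 0 higher. Their median differences were -1.15, -0.98 and -1.04. Differences of similar size were those of Bmp5, a bone morphogenetic protein (-3.32, -2.52 and -3.70), and of the collectins Colec10 (-3.12, -2.43 and -3.79) and Colec11 (-2.60, -1.93 and -3.14). These counts restate what was known at the choice, and nothing is read from them.

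Set beside Lrat, the contractile genes took several courses. Acta2, Myh11 and Pdlim3 lay above WT in every array of DKO and of Stab2KO, against the direction of Lrat. In Stab1KO, where Lrat differed from WT by -3.01, Acta2 and Myh11 differed from WT by 0.11 and 0.02 and overlapped it. Des lay below WT by mean in all 3 knockouts, by far less than Lrat and with overlap in Stab2KO and DKO. Tagln and Myl9 lay below WT in Stab1KO and above it by mean in DKO. Tnni3 lay above WT in both single knockouts, and Cnn1, Tpm1 and Tpm2 overlapped WT in every knockout. Lrat in DKO was lower than in Stab1KO, while Acta2 was higher by 1.91.

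**Figure D3:**
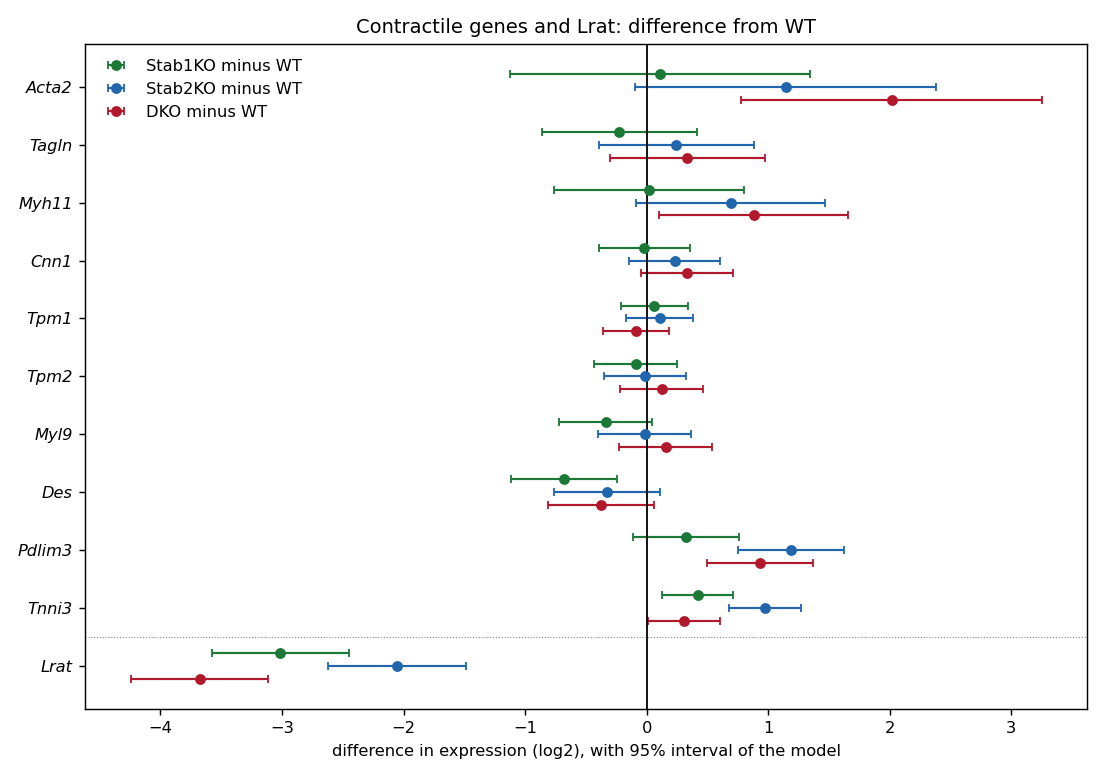
Difference of each knockout's mean from the WT mean (log2, horizontal axis) for the 10 contractile genes and Lrat, with bars for the 95% interval of the model over 12 arrays and a line at 0. Lrat lies far below 0 in all 3 knockouts (-3.01, -2.05 and -3.68), while the DKO intervals of Acta2 (0.78 to 3.25), Myh11 (0.10 to 1.66), Pdlim3 (0.50 to 1.37) and Tnni3 (0.01 to 0.60) lie above 0, in genes mostly chosen with such differences in view. The intervals are not adjusted for the number of genes and are no test of genes so chosen. Of the members, limma's fit called only Pdlim3 in DKO against WT.

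The same question was put within genotypes, where the choice of members used no difference: do pools richer in Lrat hold more or less of a contractile gene? Deviations from each genotype's mean over the 12 arrays were correlated, with two-sided exact permutation tests within genotypes and Benjamini-Hochberg adjustment over the 10 genes. None passed. Acta2 gave Pearson's r = 0.03 and Spearman's rho = 0.19 (exact permutation p = 0.883, adjusted p = 0.998), and r = 0.07 without the 2 arrays farthest from the median of the Lrat deviation. Tnni3 gave the most negative value, r = -0.61 and rho = -0.57 (exact permutation p = 0.084, adjusted p = 0.548, r = -0.73 without those 2 arrays). Pdlim3 gave r = -0.46 and rho = -0.48 (exact permutation p = 0.164, adjusted p = 0.548, r = -0.47 without them). Cnn1 gave the most positive value, r = 0.52 and rho = 0.57 (exact permutation p = 0.157, adjusted p = 0.548, r = 0.76 without them). Against the mean of the stellate list in place of Lrat, the lowest adjusted p of the 10 genes was 0.612. With 3 pools a genotype, a moderate relation could have been missed.

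**Figure D4:**
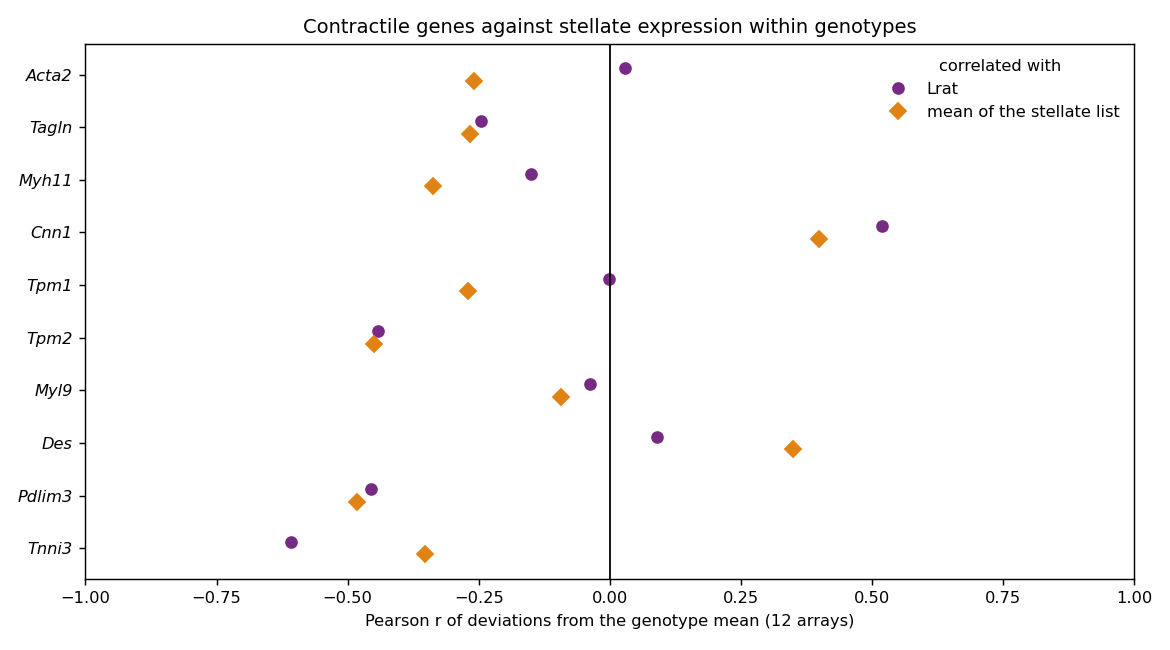
Pearson's r (horizontal axis) between each contractile gene and Lrat, or the mean of the stellate list, after the genotype means were removed, over 12 arrays. Values against Lrat run from -0.61 for Tnni3 to 0.52 for Cnn1, with Acta2 at 0.03, and none passed the exact permutation test after adjustment.

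Pdlim3 encodes a PDZ and LIM domain protein that binds alpha-actinin at the Z-line of muscle and along stress fibres. WT arrays read 8.28, 7.52 and 7.40, and Stab1KO arrays 8.0, 8.28 and 7.89. Stab2KO arrays read 8.83, 8.93 and 8.99, and DKO arrays 8.56, 8.79 and 8.65. Both genotypes without Stab2 lay above both genotypes with it, on all arrays, and DKO lay below Stab2KO on all arrays. The highest WT array was replicate 1, level with the highest Stab1KO array.

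Means of Pdlim3 were 7.73 ± 0.48 in WT, 8.06 ± 0.20 in Stab1KO, 8.92 ± 0.08 in Stab2KO and 8.67 ± 0.11 in DKO (SD, n = 3). Stab2KO was 1.19 above WT (SE 0.20, 95% interval 0.75 to 1.62) and DKO 0.93 above (95% interval 0.50 to 1.37). Stab1KO was 0.32 above WT and overlapped it, and was 0.60 above without WT replicate 1 and 0.16 without WT replicate 3. With any 1 array left out, Stab2KO lay 1.02 to 1.46 above WT. Pdlim3 was chosen for its Stab2KO value, so its call restates the choice. In Stab2KO against WT the call was kept only when WT replicate 1 or DKO replicate 3 was the array left out, and in DKO against WT only without WT replicate 1.

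The genes most like Pdlim3 over the 12 arrays were Sncg (0.958), Gja5 (0.918), Bcam (0.910), Smo (0.901) and Cdkn1c (0.898), and Acta2 stood at 0.55. Gja5 encodes connexin 40, a gap junction protein of arterial endothelium, and Sncg, gamma-synuclein, was on the mural marker list. Sncg rose by 1.09 ± 0.18 (SE) in Stab2KO (limma adjusted p = 0.041) and by 0.91 ± 0.18 in DKO (adjusted p = 0.036). Gja5 rose by 0.78 ± 0.12 in Stab2KO (adjusted p = 0.023) and by 0.63 ± 0.12 in DKO (adjusted p = 0.027). The mean of 13 measured of 14 markers of continuous endothelium was 8.62 to 9.22 in WT, 9.12 to 9.30 in Stab1KO, 9.26 to 9.38 in Stab2KO and 9.51 to 9.59 in DKO, so it was higher in the genotypes with more Pdlim3 but highest in DKO. Its part in the Pdlim3 difference was not tested. Sncg and Gja5 were named for their likeness to Pdlim3, so their differences do not add to its own.

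**Figure D5:**
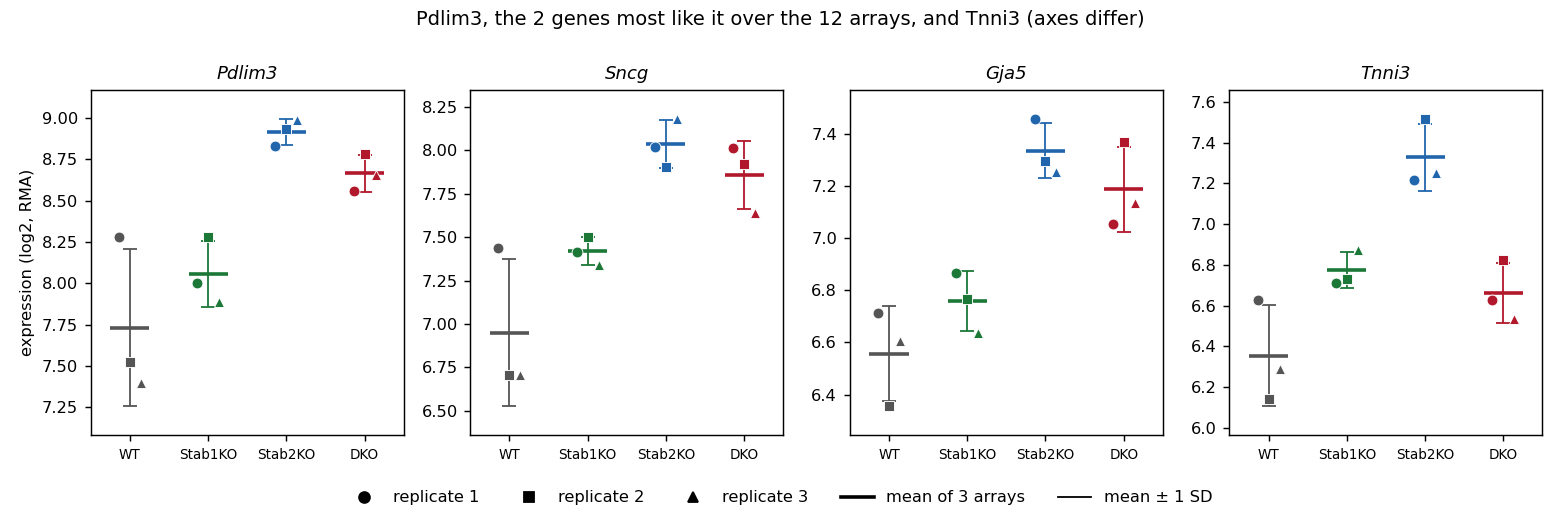
Expression (log2, vertical axes, which differ in range) of Pdlim3, Sncg, Gja5 and Tnni3 by genotype, with a point for each array and the mean ± 1 SD of 3 arrays. Pdlim3, Sncg and Gja5 are high in Stab2KO and DKO, while Tnni3 is highest in Stab2KO (7.21 to 7.52) and lies at 6.53 to 6.82 in DKO.

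Tnni3 encodes cardiac troponin I, the inhibitory subunit of the calcium switch of heart muscle, and is not a smooth muscle gene. Its arrays read 6.63, 6.14 and 6.29 in WT, 6.71, 6.73 and 6.87 in Stab1KO, 7.21, 7.52 and 7.25 in Stab2KO and 6.63, 6.82 and 6.53 in DKO. Each single knockout lay above WT on all arrays, Stab2KO lay above all other genotypes, and DKO overlapped WT and Stab1KO.

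Means of Tnni3 were 6.35 ± 0.25, 6.77 ± 0.09, 7.33 ± 0.17 and 6.66 ± 0.15 in WT, Stab1KO, Stab2KO and DKO (SD, n = 3). The difference from WT was 0.42 in Stab1KO, 0.97 in Stab2KO and 0.31 in DKO (SE 0.13), and DKO was 0.67 below Stab2KO. The DKO difference ran from 0.20 without WT replicate 2 to 0.45 without WT replicate 1. By mean, Tnni3 was higher on loss of Stab1 where Stab2 was present and lower where it was absent. The departure from additivity was not called. Choice by a high Stab2KO value favours that pattern, so nothing is read from it. Tnni3 too was chosen for its Stab2KO value. The call in Stab2KO against WT was lost without WT replicate 2, WT replicate 3 or Stab2KO replicate 2, with differences of 0.87, 0.94 and 0.88. The DKO against Stab2KO call was lost without Stab2KO replicate 1 or 2 or DKO replicate 1 or 3, with differences of -0.72, -0.57, -0.65 and -0.60.

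The 20 striated muscle genes of the sarcomere list averaged 4.56 to 4.69 on the 12 arrays. Tnnt2, cardiac troponin T, ranged from 5.14 to 6.00, with its highest value in Stab1KO. The genes most like Tnni3 were Mpi (0.945), Ergic3 (0.930), Eif3h (0.929), Fads3 (0.928) and Erg28 (0.925), none of them a muscle gene. Acta2 stood at 0.16 with Tnni3.

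Kupffer cell markers, genes of the liver's resident macrophages, were low in Stab2KO, where Pdlim3 and Tnni3 were highest. The mean of 13 such markers was 7.54, 9.65 and 8.95 in WT, 8.25 to 9.20 in Stab1KO, 7.16 to 7.64 in Stab2KO and 8.03 to 9.12 in DKO. All 13 lay below WT in Stab2KO by mean, with 0 called by limma and 10 lower at an unadjusted p under 0.05 (3.25% of all genes). WT replicate 1, the highest WT array for Pdlim3 and Tnni3, had the lowest Kupffer mean of its genotype. In DKO, where Pdlim3 was also high, the Kupffer mean lay within the range of the WT arrays. Its part in the Pdlim3 and Tnni3 differences was not tested.

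Counted over the 10 genes, limma's fit called 2 higher in Stab2KO than in WT (Pdlim3 and Tnni3), against 0.0833% of all 24011 genes called higher. It called 1 higher in DKO than in WT (Pdlim3), against 0.754% of all genes, with 4 higher at an unadjusted p under 0.05 (5.96% of all genes), and 1 lower in DKO than in Stab2KO (Tnni3), against 2.12% of all genes. The choice of genes used the comparisons against WT, and the third shares their arrays, so nothing is read from these counts. Acta2 was not called in any of the 7 comparisons with all arrays.

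For Stab1KO against WT, which was not used to choose them but shares its WT arrays with comparisons that were, 0 of the 10 were called by limma, against 0.308% of all genes called either way. At an unadjusted p under 0.05, 1 was higher (Tnni3, with 2.03% of all genes) and 1 lower (Des, with 1.88%). Here 5 lay above WT and 5 below. None was called in Stab2KO against Stab1KO, where 0.108% of all genes were called either way, and 2 were higher at an unadjusted p under 0.05 (4.07% of all genes). None was called in DKO against Stab1KO, where 0.945% of all genes were called either way, and 4 were higher at an unadjusted p under 0.05 (5.79%). The departure from additivity, which asks whether loss of Stab1 does the same with and without Stab2, called 0 of the 10 in limma's fit, against 0.0333% of all genes called higher and 0.0167% called lower, with 1 higher and 1 lower at an unadjusted p under 0.05 (4.68% and 7.78% of all genes). The last 3 use the Stab2KO or DKO arrays on which the genes were chosen, so nothing is read from them either.

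By overlap, Acta2, Myh11, Pdlim3 and Tnni3 were higher on all Stab2KO arrays than on all WT arrays, a pattern that 8.09% of all genes showed. Acta2, Tagln, Myh11 and Pdlim3 did so in DKO against WT (8.97% of all genes), and Acta2, Tagln, Myh11, Myl9 and Pdlim3 in DKO against Stab1KO (6.88%). Tnni3 alone was separated above WT in Stab1KO (5.36%), and Tagln, Myl9 and Des were separated below it (4.72%). Des, Pdlim3 and Tnni3 were separated above Stab1KO in Stab2KO (6.61%), and Pdlim3 and Tnni3 below Stab2KO in DKO (13.8%). Comparisons against WT share the same 3 WT arrays, and those with Stab2KO or DKO arrays restate the choice.

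The wider contractile apparatus was read as a list of 30 further smooth muscle genes, 28 of them measured. It holds the cytoplasmic actins, calponins, light chain kinase and their regulators. By limma 0 of the 28 were called in Stab1KO or Stab2KO against WT, where 0.308% and 0.296% of all genes were called either way. At such shares, 0 calls among 28 genes is not a result about the list. At an unadjusted p under 0.05, 0 were higher and 2 lower in Stab1KO, 1 and 1 in Stab2KO, and 4 and 4 in DKO. Of all genes, 2.03% were higher and 1.88% lower at that level in Stab1KO, 4.37% and 3.25% in Stab2KO, and 5.96% and 10.7% in DKO. Flna and Actn1 had higher means in DKO than in WT but spread widely there. Their SDs were 0.80 and 1.08 among the DKO arrays, against 0.14 and 0.03 in WT. In DKO 1 of the 28 was called lower, where 1.05% of all genes were, and 0 higher, where 0.754% were. It was Cald1, the actin-binding caldesmon (-0.33 ± 0.07 SE, adjusted p = 0.048). Median differences from WT were -0.04, 0.03 and 0.00 in Stab1KO, Stab2KO and DKO. Csrp1, a LIM protein of smooth muscle, fell in DKO against Stab2KO (-0.36 ± 0.08, adjusted p = 0.045), where 2.12% of all genes fell. Mylk, the kinase that phosphorylates the Myl9 product, was -0.66 in Stab1KO (adjusted p = 0.18) and -0.51 in Stab2KO (adjusted p = 0.32) against WT, neither called. Actg2, Lmod1 and Myocd, smooth muscle genes themselves, ranged over the 12 arrays from 3.75 to 4.32, 4.78 to 5.42 and 3.98 to 4.37.

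None of 20 striated sarcomere genes and none of 9 PDZ-LIM genes was called in any of the 7 comparisons. The share of all genes called either way was highest in DKO against Stab2KO, at 3.42%. At that share or less, 0 calls among 20 or 9 genes is not a result about either list. Against WT, unadjusted p under 0.05 was met by 2 higher and 0 lower striated genes in Stab1KO, 2 and 1 in Stab2KO and 4 and 2 in DKO. For the PDZ-LIM genes the counts were 0 and 1, 0 and 0, and 1 and 1. Both sets stand beside the shares of all genes just given, 2.03% and 1.88%, 4.37% and 3.25%, and 5.96% and 10.7%. Myl7, an atrial light chain, was 0.41 ± 0.09 higher in Stab2KO than in WT (limma adjusted p = 0.13), and the difference was 0.86 for Pdlim2 in DKO against WT (adjusted p = 0.31). The DKO arrays of Pdlim2 read 6.13, 6.20 and 8.04, so the neutrophil-rich DKO replicate 3 carried that value.

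Among 19 measured of 20 genes that control contraction through SRF and RhoA, Arhgap42, a RhoA-inactivating protein of smooth muscle, fell in all 3 knockouts. Its differences from WT were -1.63 ± 0.26 in Stab1KO (adjusted p = 0.026), -1.53 ± 0.26 in Stab2KO (adjusted p = 0.042) and -1.93 ± 0.26 in DKO (adjusted p = 0.0054). Limk1, which phosphorylates cofilin, and Rhoc fell in DKO against Stab2KO, by 0.65 and 0.45 on the log2 scale (adjusted p = 0.042 and 0.021). There 2 of the 19 fell, beside 2.12% of all genes. No gene of that list rose in any comparison, where 0.0292% to 1.30% of all genes rose. In the comparisons against WT, 1, 1 and 1 of the 19 fell, beside 0.279%, 0.212% and 1.05% of all genes.

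Of the 21 mural markers, Gucy1a1, a subunit of the nitric oxide receptor (-1.47 ± 0.20, adjusted p = 0.0083), and Rgs4 (-0.76 ± 0.13, adjusted p = 0.044) fell in Stab1KO and 0 rose, where 0.279% of all genes fell and 0.0292% rose. In Stab2KO Sncg alone was called, where 0.0833% of all genes rose and 0.212% fell. There 1 marker was higher and 7 lower at an unadjusted p under 0.05 (4.37% and 3.25% of all genes). In DKO Sncg and Gucy1b1 (0.91 ± 0.17, adjusted p = 0.026) rose and 0 fell, where 0.754% of all genes rose and 1.05% fell. At an unadjusted p under 0.05, 1 was higher and 4 lower in Stab1KO (2.03% and 1.88% of all genes), and 5 and 4 in DKO (5.96% and 10.7%). Mural markers therefore gave calls in both directions, and their median differences from WT were -0.07, -0.02 and -0.02.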

How the data were processed

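Expression was measured on Affymetrix arrays in 12 LSEC pools. The authors deposited 1 log2 value per row and array, made with RMA per the submitters' processing notes. RMA forces arrays to a common distribution, so values are relative within the series. The sources used here name neither its version nor a genome build. Of 24973 rows, 24015 had 1 symbol in the platform annotation, 0 had several and 958 were unnamed. The row with the highest mean was kept per symbol, which left 24011 genes.

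Differences are from limma 3.58.1 in R 4.3.3, with 4 genotype means over 12 arrays and moderated two-sided tests. P-values were adjusted by Benjamini-Hochberg over the 24011 genes within each of 7 contrasts, and a gene was called under 0.05. Contrasts set each knockout against WT and the knockouts among themselves, and one measured the departure from additivity. The number of pools limits the precision. The fit was tested on simulated data first.

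The members and lists were chosen with earlier results of these data known. Named were the members, Stab1 and Stab2, Lrat and up to 4 stellate genes, up to 4 called genes per pathway list and contrast (or 2 where none was called, as values), up to 3 per cell type list, and the 5 genes most like Acta2, Pdlim3 and Tnni3. Actg2, Lmod1, Myocd, Tnnt2 and the position of a member within another's ranking fall outside that rule and were chosen after their values were seen. Notch3 also falls outside it, and more than 3 markers of the mural list were named. The comparison of related protein sequences was not run.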

Additional observations from a re-analysis of the deposited data

Results flagged for a closer look

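In 3 of the 10 genes, loss of Stab1 moved every array in opposite directions depending on whether Stab2 was present, each array being set against the mean of the genotype that keeps Stab1. It is a pattern that 2038 of the 24011 genes (8.49%) showed. The departure from additivity is the difference DKO minus Stab2KO less the difference Stab1KO minus WT. For Tnni3 it was -1.08, with limma's adjusted p = 0.073. For Pdlim3 it was -0.58 and for Myl9 0.51, each with an adjusted p of 0.44. Tnni3 and Pdlim3 were chosen for high Stab2KO values, which enter this difference with a minus sign. The choice by itself favours negative values for both, so nothing is read from them or from the count of 3. Tnni3 and Pdlim3 lay higher on Stab1 loss with Stab2 present and lower without it by mean, and Myl9 the other way round. For loss of Stab2 with and without Stab1, 9.86% of all genes and 0 of the 10 showed such opposite directions.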

How the results depend on the processing

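The alternatives changed no direction of a called value, but calls among the 10 genes were few and changed with single arrays. When 1 array was left out, the number called ranged from 0 to 0 in Stab1KO against WT, 0 to 2 in Stab2KO against WT, 0 to 1 in DKO against WT, 0 to 1 in Stab2KO against Stab1KO, 0 to 1 in DKO against Stab1KO, 0 to 1 in DKO against Stab2KO and 0 to 1 in the departure from additivity. The gained calls were Pdlim3 in Stab2KO or DKO against Stab1KO without WT replicate 1, Acta2 in DKO against WT or Stab1KO without Stab2KO replicate 3, and the departure of Tnni3 without WT replicate 1. For the Pdlim3 and Acta2 calls the array left out was in neither genotype compared, and the difference did not change. With the replicate block, 1 gene was called in Stab2KO against WT and 0 in DKO against WT. Deviations of arrays with the same replicate number correlated at -0.06 to 0.29 (median 0.06), and 4 of 18 pairs passed 0.1. Those of arrays with other numbers correlated at -0.27 to 0.21 (median -0.04), and 5 of 36 pairs passed 0.1. Whether the replicate numbers pair the arrays was not tested. With only the 6 arrays compared in each fit, 0 were called in Stab2KO against WT, 0 in DKO against WT and 0 in DKO against Stab2KO. With array weights, 1 gene (Tnni3) departed from additivity. The cause of these changes was not tested. A filter at the 40th percentile removed Cnn1 and Tpm2. With no detection calls, the lowest values hold an unknown share of background.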
